A study of Mus musculus with 32 samples.

Results

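The cytosolic ribosomal protein genes encode the proteins of the small and large subunits of the ribosome that translates the messages of the cell nucleus. They were taken by name from the gene table of the study as the protein-coding genes whose symbol is Rpl or Rps followed by a number, together with Rpsa, Rplp0, Rplp1, Rplp2 and Fau. Of 135 names that matched, 35 were left out as pseudogene names or as not protein-coding and 12 by name, namely the ribosomal protein kinases (Rps6k), Rps19bp1, which encodes a protein that binds Rps19, and Rps27l, a paralog of Rps27 that the selection did not take. This left 88 of the 27179 genes in the table, of which 43 encode large subunit proteins, 32 small subunit proteins and 3 the stalk, and 10 are paralogs or retrocopies with a name of their own. They lie on 20 chromosomes, 4 of them on the X, and their annotated exon length has a median of 706.5 bases, between 328 and 5136.

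RNA was sequenced from 32 libraries of 16 adult C57BL/6 mice to follow the loss of HBO1, the histone acetyltransferase encoded by Kat7. By the labels every mouse gave 1 library of LSK cells, a sorted bone marrow fraction that contains the stem cells, and 1 of sorted progenitor cells, whose gate they do not describe. There were 8 groups of 4 libraries each: in both cell populations, Mx1Cre knockout, Mx1Cre control, CreER knockout and CreER control. Knockout mice were Hbo1fl/fl with both alleles deleted, and controls were Hbo1fl/+ with 1 allele deleted according to the titles, although the treatment protocol speaks of wild type controls that express Cre. CreER mice carried RosaCreERT2 and received tamoxifen, and Mx1Cre mice carried Mx1-Cre and received polyIC, which induces interferon. Cre line, agent and mice changed together, so that they cannot be told apart in any comparison of the 2 lines. The labels count 2 female and 2 male mice in each Mx1Cre group and 3 female and 1 male in each CreER group.

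A ribosome holds 1 copy of nearly every one of these proteins, and the stalk, which recruits translation factors, is the main part present in several copies. Their messages share a short run of pyrimidines at the very start, the terminal oligopyrimidine or TOP motif, through which mTOR signalling and the RNA-binding protein LARP1 govern how well they are translated and how long they last. Blood formation is sensitive to their dose: in humans, loss of 1 copy of genes such as RPS19, RPL5 or RPL11 causes Diamond-Blackfan anemia.

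The start of the gene is shown for 6 members called higher in Mx1Cre than in CreER libraries in all 4 comparisons of the lines given below (Fau, Rps27, Rps27rt, Rplp2, Rps21 and Rpl39) and for 3 members called in none (Rpl4, Rps13 and Rpl15), because the pyrimidine run is the letter pattern that marks the family. They were picked to show starts with and without the run on both sides, and the counts over all members with a promoter entry stand with those comparisons. Each line gives 25 bases before the annotated start and 15 from it, 5′ to 3′ on the strand of the gene, from RefSeq on GRCm38.p6. Capitals mark the pyrimidine run at the start or, where none begins there, the longest run that begins with C within 20 bases of it. The marked run of Rps13 reaches the last printed base, so it may be cut there.
Fau: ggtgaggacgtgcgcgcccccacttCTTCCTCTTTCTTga
Rps27: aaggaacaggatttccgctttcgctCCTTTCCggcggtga
Rps27rt: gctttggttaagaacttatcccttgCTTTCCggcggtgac
Rplp2: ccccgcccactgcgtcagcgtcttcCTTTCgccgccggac
Rps21: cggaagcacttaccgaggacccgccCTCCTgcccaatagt
Rpl39: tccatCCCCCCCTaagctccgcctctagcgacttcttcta
Rpl4: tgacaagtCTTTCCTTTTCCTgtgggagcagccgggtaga
Rps13: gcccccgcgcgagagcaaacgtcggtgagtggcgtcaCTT
Rpl15: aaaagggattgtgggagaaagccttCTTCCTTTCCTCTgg
These windows are chr19:6057922-6057961 on the plus strand for Fau, chr3:90213634-90213673 on the minus strand for Rps27, chr9:114982725-114982764 on the minus strand for Rps27rt, chr7:141447626-141447665 on the plus strand for Rplp2, chr2:180257354-180257393 on the plus strand for Rps21, chrX:37085208-37085247 on the minus strand for Rpl39, chr9:64173362-64173401 on the plus strand for Rpl4, chr7:116334176-116334215 on the minus strand for Rps13 and chr14:18270972-18271011 on the minus strand for Rpl15. Each window lies across the annotated 5′ end of the first exon of its gene. A promoter entry was found for 68 of the 88 members. A C at the start followed by at least 4 further C or T, read on the strand of the gene, stood in 16 of them, or 23.5%, against 3.01% of 27025 genes with an entry. A run of at least 8 pyrimidines within 20 bases of the start stood in 34 members, or 50.0%, against 16.5% of genes, and TATAAA between 40 and 16 bases before the start on that strand in 1.47% of members against 2.41% of genes. The annotated start can lie some bases away from the used one, and a match describes letters only.

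Library totals lay between 7275277 and 18409271 counts, with a median of 12207444. Kat7 was at 1.35 ± 0.303 CPM (counts scaled to a common library size, SD, n = 4) in Mx1Cre knockout LSK cells, against 71.1 ± 4.58 in their controls, and at 0.852 ± 0.288 in CreER knockout LSK cells, against 67.3 ± 9.52. In progenitor cells it was at 1.45 ± 0.169 CPM in Mx1Cre knockouts, against 61.5 ± 14.9 in their controls, and at 0.454 ± 0.433 in CreER knockouts, against 71.5 ± 4.69. Xist and Y-linked genes went against the labelled sex in 2 libraries, LSK CreER knockouts 2 and 3, which belong to the same group, and results that involve that group were also computed without them. Of the 9 markers of stem cells and LSK cells, 9 were higher in LSK than in progenitor controls and 0 lower, while 6 of 6 neutrophil markers and 6 of 6 myeloid progenitor markers were lower, by edgeR's quasi-likelihood test. A further library, progenitor Mx1Cre control 1, stood apart in the ribosomal protein genes, as described with them, and in other genes. It had the lowest Kat7 of its group, at 39.6 CPM, and the highest sum of mature erythroid markers, at 89.8 CPM against a group median of 16.8. Its Xist was at 428 CPM of the library total, against 1883 in control 2, the other female of its group.

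Per kilobase of exon the ribosomal protein genes spanned a wide range of levels, although most proteins of the ribosome are used in equal numbers. The 85 members that passed the filter on low counts lay between 9.96 CPM per kilobase for Rpl23a and 2075 for Rpl8, averaged over the 32 libraries, a 208-fold span. Among the highest were Rpl8 at 2075 ± 529 CPM per kilobase (SD over 32 libraries), a large subunit protein near the peptidyl transferase centre, the large subunit gene Rpl4 at 1628 ± 281, and the small subunit genes Rps20 at 1233 ± 455 and Rps15 at 1202 ± 604. Rpl8 ranged from 1626 to 4482 CPM per kilobase and Rpl4 from 1306 to 2886. Rpl8 was above Rpl4 in 32 of 32 libraries, and Rps20 was above Rps15 in 16 of 32. The 10 members with the highest CPM held 58.2% of the summed CPM of all members.

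Levels went with how much of a transcript is repeated elsewhere in the transcriptome. The share of 80-base windows of the GENCODE transcript that also occur in a transcript of another gene, mostly processed pseudogenes, had a median of 47.5% over the 86 members with a transcript. Level per kilobase and this share had a Pearson r of -0.51 on the log2 scale and a Spearman rho of -0.47 over 83 tested members, which all share the same libraries and the same counting step. The 11 members with at most 10% of windows shared had a median of 829.8 CPM per kilobase, the 36 members between 10% and 50% a median of 121, and the 36 above 50% a median of 47.7. The transcript compared can differ in length from the counted exons, which these bins and correlations do not correct for. That of Rps20, in the lowest bin at 6.42%, had 3706 bases and 233 of 3627 windows shared, against an exon length of 502. Among others, those of Rpl35, Rps24, Rps16 and Rpl12 were also longer than the counted exons, and those of Rps15a, Rpl15 and Rpl21 were shorter. In the lowest bin that of Rpl39 was longer, with 612 against 394 bases. Those of Rpl22 and Rpl7l1 in that bin were shorter, with 474 against 2040 and 1310 against 2606 bases. Rps3, of the small subunit, shared 0% of its windows, Rps27 98.5%, Rpl10 91.8% and Rps27rt 90.2%. Whether reads that fit several places were counted is not given in the sources used here, so a low level of a member such as Rps27 at 19.9 CPM per kilobase cannot be read as few messages.

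**Figure D1:**
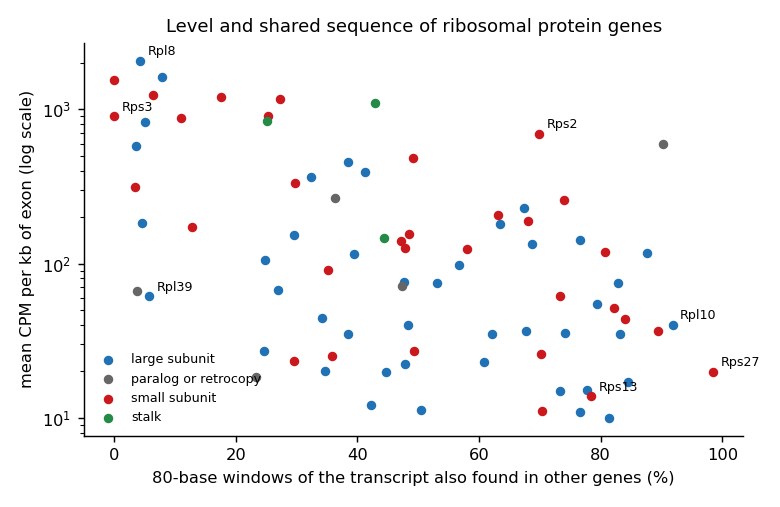
Mean level per kilobase of each tested member over 32 libraries, on a log axis, against the percentage of its 80-base transcript windows that also occur in another gene. Members with little shared sequence sit high, with a median of 829.8 CPM per kilobase at or below 10%, and members above 50% sit low, with a median of 47.7. The transcript compared can differ in length from the counted exons, as for Rps20.

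The paralogs and retrocopies with names of their own divided into transcribed and nearly silent genes. Rpl3l, the striated muscle paralog of Rpl3, had 80 counts in all 32 libraries together, Rpl39l, a paralog best known from testis, had 76, and Rpl10l, an intronless paralog of Rpl10 needed in the male germ line, had 6, and these 3 did not pass the filter. Rpl7l1, a nucleolar relative of Rpl7, had 65.9 ± 7.08 CPM per kilobase, against 456 ± 150.4 for Rpl7. Rpl22l1 had 71.2 ± 43.9, against 182 ± 59.5 for its partner Rpl22, whose protein is not essential for translation itself. Rpl36al had 267 ± 124, against 16.9 ± 8.40 for Rpl36a, of whose windows 84.4% are shared. Rps27rt, the retrocopy of Rps27 on chromosome 9, had 594 ± 330.0 and Rps27 19.9 ± 12.02, and Rpl37rt had 466 ± 244 and Rpl37 27.0 ± 13.1. Rpl32l had 186 ± 51.7 and Rpl32 582 ± 224, while Rps23rg1 had 18.5 ± 7.05 and Rps23 27.2 ± 14.7. Reads of such pairs can be split between them by the counting, and each value is therefore uncertain.

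Summed over all 88 members, the ribosomal protein genes took 2.22% ± 0.381 of the counts in Mx1Cre knockout LSK libraries and 2.26% ± 0.0768 in their controls, and 1.76% ± 0.140 in CreER knockout LSK libraries and 1.82% ± 0.277 in their controls (SD, n = 4 each). In progenitor libraries they took 2.13% ± 0.380 in Mx1Cre knockouts and 2.63% ± 1.1 in their controls, and 1.5% ± 0.156 in CreER knockouts and 1.67% ± 0.190 in their controls. The high mean of the progenitor Mx1Cre controls came from control 1 with 4.26%, and without it the mean was 2.08% ± 0.227. All other libraries lay between 1.29% and 2.69%. The 36 pseudogene-type names of the same family took 0.0715% to 0.188% of the counts.

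**Figure D2:**
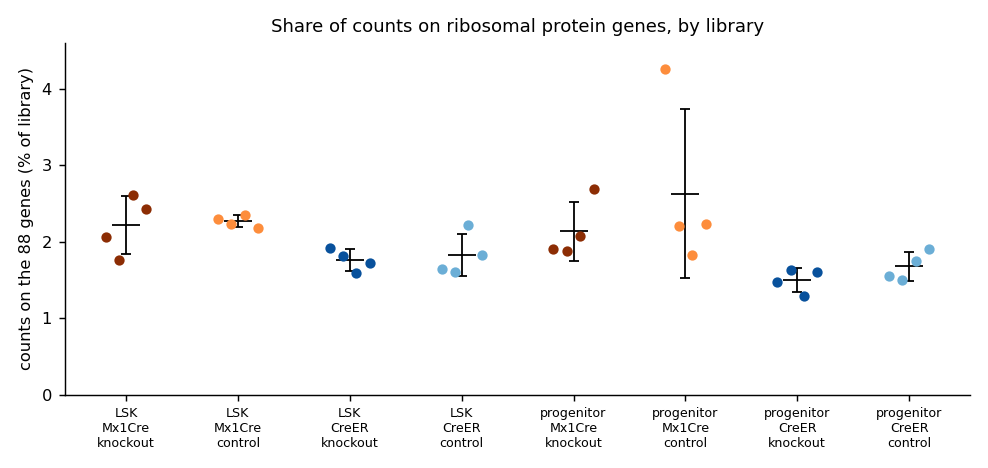
Percentage of a library's counts on the 88 ribosomal protein genes, 1 point a library, with the mean and SD of each group of 4. Knockouts and their controls overlap, the Mx1Cre groups sit above the CreER groups on average, and progenitor Mx1Cre control 1 stands alone at 4.26%.

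How many ribosomal protein genes were called where HBO1 was lost depended on whether the length trend of the libraries, the slope of expression on gene length, was removed. Without that step none of the 85 members tested passed the threshold of 0.05 on the adjusted p of edgeR's quasi-likelihood test in any of the 4 comparisons of a knockout group with its own control. Of all genes tested, 31.0% were called in Mx1Cre LSK cells, 3.16% in CreER LSK cells, 6.08% in Mx1Cre progenitor cells and 0.168% in CreER progenitor cells. In the same order 15.2%, 1.57%, 1.59% and 0.0365% of genes were called higher and 15.9%, 1.59%, 4.49% and 0.131% lower. At an unadjusted p under 0.05 there were 3, 7, 6 and 0 members in the same order, and 43.1%, 17.7%, 17.5% and 7.82% of all genes. DESeq2 called 1 member, Rps13, in CreER LSK cells and 0 in the other 3 comparisons. The shares of all genes called by DESeq2 are not given here.

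With the length trend removed, 13 of 85 members were called lower in Mx1Cre LSK cells, or 15.3%, where 15.5% of all genes were, and 6 in Mx1Cre progenitor cells, or 7.06%, where 6% of all genes were. None was called higher in either, and 0 were called in the CreER comparisons. The shares of all genes called higher, or called in the CreER comparisons, in these fits are not given here. The lowest adjusted p in Mx1Cre LSK cells were those of Rps27rt at -0.62 ± 0.12 and Rps20 at -0.32 ± 0.08, and in Mx1Cre progenitor cells those of Rps18 at -0.45 ± 0.10 and Rps19 at -0.42 ± 0.10 (log2 fold change ± SE, edgeR adjusted p of 0.00140, 0.00624, 0.0110 and 0.0129). Both counts lay near the share of all genes called lower. In bulk samples such as these, fewer cells of a type and less RNA per cell cannot be told apart.

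The median log2 fold change of the members, knockout over control, was 0.02 in Mx1Cre LSK cells, -0.06 in CreER LSK cells, -0.33 in Mx1Cre progenitor cells and -0.17 in CreER progenitor cells. The medians of all genes tested lay between -0.01 and 0.01 in these comparisons. The value in Mx1Cre progenitor cells rested on control 1, the library with 4.26% of counts in these genes, and was 0.07 without it. In CreER progenitor cells 77 of 85 members had a negative log2 fold change, the lowest being -0.51. By class, the medians in these cells were -0.13 for 43 large subunit members, -0.19 for 32 small subunit members, -0.09 for the 3 stalk members and -0.24 for 7 paralogs or retrocopies.

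**Figure D3:**
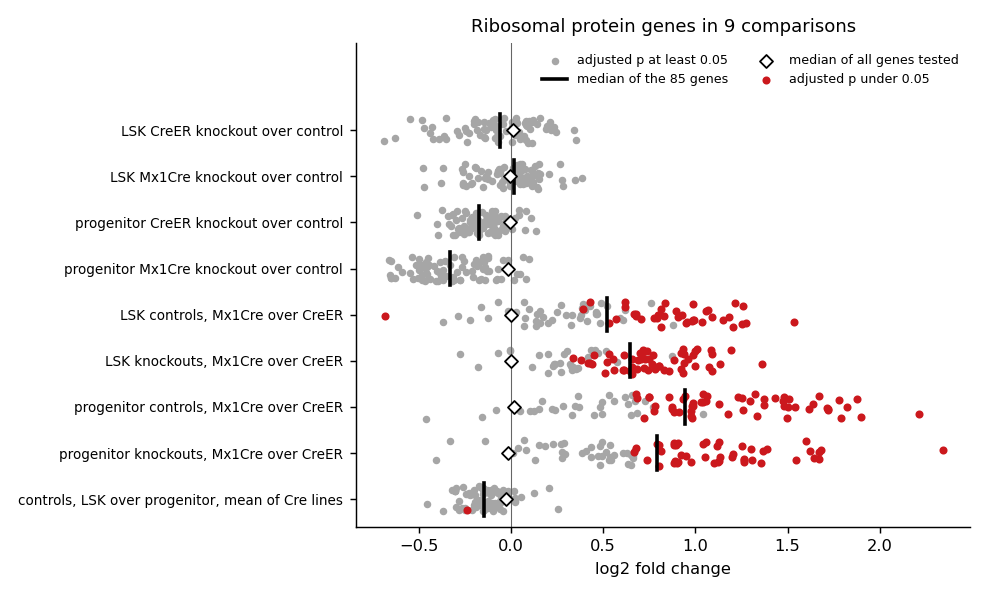
Log2 fold changes of the 85 tested ribosomal protein genes in each comparison, 1 point a gene, with members called at an adjusted p under 0.05 in red, the median of the 85 as a bar and the median of all genes tested as a diamond. The knockout comparisons centre near 0 or slightly below it, and the comparisons of Mx1Cre with CreER centre between 0.52 and 0.94.

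Few members had groups that did not overlap at all. Only Rps13 and Rpl10 lay lower in every Mx1Cre knockout LSK library than in every control, 2 of 85 members against a background of 15% of genes that were lower without overlap. In CreER LSK cells this held for Rpl5 alone, against 5.22% of genes, and in CreER progenitor cells for 4 of 85 members, among them Rps4x, Rps9 and Rps19, against 4.78% of genes. In Mx1Cre progenitor cells 0 members were lower without overlap, against 6.05% of genes. No member was higher without overlap in these 4 comparisons, where 14.5%, 4.32%, 4.81% and 3.4% of genes were, in the order Mx1Cre LSK, CreER LSK, CreER progenitor and Mx1Cre progenitor.

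Taking the mean of the knockout effects in both Cre lines, 4 members fell in LSK cells and 0 rose, while 14.3% of all genes were called lower and 13.5% higher. With the length trend removed 11 fell, 12.9% of the members, where 15% of all genes were called lower. Rps13 encodes a small subunit protein that contacts the large subunit at a bridge between them. It had 6.63, 6.44, 6.65 and 6.98 CPM in Mx1Cre knockout LSK libraries, against 10.1, 9.02, 8.37 and 9.43 CPM in their controls. In the CreER line it had 5.69, 4.53, 5.82 and 11.0 CPM in knockouts, against 8.17, 9.75, 11.7 and 13.8 CPM in controls. The Mx1Cre groups did not overlap, and in the CreER line knockout 4 lay among the controls. The mean log2 fold change was -0.58 ± 0.16 (SE) with an adjusted p of 0.0121 by edgeR's quasi-likelihood test.

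Rpl10, on the X chromosome, encodes one of the last proteins to join the large subunit. It had 21.03, 30.8, 33.3 and 25.1 CPM in Mx1Cre knockouts, against 33.5, 39.2, 36.2 and 33.5 CPM in Mx1Cre controls. In the CreER line it had 17.7, 13.9, 28.4 and 28.6 CPM in knockouts, against 24.3, 28.02, 36.4 and 40.03 CPM in controls, and these groups overlapped. Its mean log2 fold change was -0.46 ± 0.15 with an edgeR adjusted p of 0.0286. Rpl3 lies at the peptidyl transferase centre and had 72.5, 84.9, 131 and 91.0 CPM in Mx1Cre knockouts, against 121, 109, 147 and 116 CPM in Mx1Cre controls. CreER libraries had 69.8, 67.6, 77.2 and 83.3 CPM of Rpl3 in knockouts, against 68.3, 89.2, 105 and 118 CPM in controls. The groups overlapped in both lines, with a log2 fold change of -0.37 ± 0.12 and an adjusted p of 0.0296 by the same test. Rpl10a, of the mobile stalk through which used tRNA leaves, changed by -0.34 ± 0.11 with an adjusted p of 0.0348. It averaged 93.2 ± 19.8 CPM in Mx1Cre knockouts and 111 ± 4.38 CPM in their controls, and 75.5 ± 16.8 CPM in CreER knockouts and 101 ± 18.3 CPM in their controls (SD, n = 4 each).

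All 4 belong to the 17 members with more than 75% of their transcript windows shared with another gene, at 78.4% for Rps13, 91.8% for Rpl10, 82.8% for Rpl3 and 87.5% for Rpl10a, and the part of shared sequence in these differences was not tested. Over those 17 members the median log2 fold change was -0.19, against -0.01 over all 85. Leaving out LSK CreER knockouts 2 and 3, whose sex-linked genes go against their labels, kept Rpl10 alone below the threshold, at an adjusted p of 0.0445, while Rps13 came to 0.0612, Rpl10a to 0.0600 and Rpl3 to 0.0849. Leaving out any 1 library kept Rps13 called, and the total ran from 1 to 7 members. Rps13 was the only member called without CreER knockout 2, Mx1Cre knockout 1, Mx1Cre knockout 4 or CreER control 4, Rps13 and Rpl3 were called without CreER knockout 1 or Mx1Cre control 2, and the 7 came without Mx1Cre knockout 3. In the same comparison 6 of 9 markers of stem cells and LSK cells and 5 of 5 erythroid progenitor markers were lower, and 3 of 6 neutrophil and 3 of 6 myeloid progenitor markers were higher, and their part in these 4 genes was not tested. Same-numbered LSK Mx1Cre knockouts and controls deviated together, and with the replicate number as a block Rpl3 alone was called lower in Mx1Cre LSK cells, at -0.40. The share of all genes called with the replicate block is not given here.

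In progenitor cells the mean of both lines called 0 of 85 members by edgeR's quasi-likelihood test and 0 by DESeq2, with 6 members at an unadjusted p under 0.05 and 7.79% of all genes called, 2.28% higher and 5.51% lower. At that unadjusted p 19.7% of all genes passed. With the length trend removed 6 members were called lower, 7.06% of the members, where 7.26% of all genes were, and 5 with progenitor Mx1Cre control 1 left out as well. Their median log2 fold change was -0.23, with -0.20 for large and -0.28 for small subunit members. Leaving out progenitor Mx1Cre control 1 and knockout 4, the libraries with the strongest length trends, brought 3 members under the threshold as lower, Rps19 at -0.36, Rpl23 at -0.37 and Rpl32l at -0.29.

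Without further steps, the members best known for their part in human anemia and in p53 control did not pass the test in the knockouts. Rps19 was called lower in progenitor cells in fits given above, with the length trend removed or with libraries left out. Rps19, the first gene linked to Diamond-Blackfan anemia, had 86.0, 74.8, 67.4 and 81.0 CPM in CreER knockout progenitor libraries, against 87.98, 96.3, 100.2 and 120.1 CPM in controls. These groups did not overlap, and the log2 fold change of -0.40 ± 0.21 had an edgeR adjusted p of 0.709. In Mx1Cre progenitor cells Rps19 averaged 89.5 ± 21.01 CPM in knockouts and 119 ± 40.9 CPM in controls, and in LSK cells its log2 fold change was -0.06 for Mx1Cre and -0.43 for CreER. Rpl5 and Rpl11, which with 5S rRNA bind Mdm2 and release p53, had log2 fold changes of 0.11 ± 0.11 and 0.28 ± 0.20 in Mx1Cre LSK cells and of -0.25 ± 0.11 and -0.20 ± 0.21 in CreER LSK cells. In progenitor cells Rpl5 was at -0.46 for Mx1Cre and -0.14 for CreER, and Rpl11 at -0.35 and -0.01. Rpl26, which favours translation of the p53 message, and Rps14, a gene of the human 5q deletion syndrome, had log2 fold changes of 0.01 ± 0.20 and 0.11 ± 0.15 in Mx1Cre LSK cells. In CreER LSK cells they were at 0.05 ± 0.20 and 0.08 ± 0.15. In progenitor cells Rpl26 was at -0.13 for Mx1Cre and -0.22 for CreER, and Rps14 at -0.48 and -0.15.

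Tests of whether the knockout effect differed between the lines or the populations called 0 members without further steps. For the difference between Mx1Cre and CreER, edgeR's quasi-likelihood test called 0 of 85 members in LSK cells, where 0.688% of genes were called higher and 3.68% lower (4.37% in all), and 0 in progenitor cells, where 0.0657% were higher and 0.234% lower (0.299% in all). DESeq2 also called 0 in both, and 1 and 0 members were at an unadjusted p under 0.05, where 24.1% and 5.05% of all genes were. With the length trend removed 1 member, Rps27rt at -0.93 ± 0.18, was called lower in the LSK difference, where 3.73% of genes were, and without LSK Mx1Cre knockout 2 the members Rpl14 at 0.52 and Rpl8 at 0.44 were called. For the difference between LSK and progenitor cells both tools called 0 members, 0 were at an unadjusted p under 0.05 against 15.1% of all genes, and edgeR called 2.52% of genes, 1.1% higher and 1.42% lower.

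Most of the calls in the family were between the mice of the 2 Cre lines, in controls and knockouts alike. In LSK controls 39 of 85 members were higher in Mx1Cre than in CreER mice by edgeR's quasi-likelihood test and 1 was lower, with 11.7% and 10% of all genes called in these directions, and the median log2 fold change was 0.52 over members and 0.00 over all genes. In LSK knockouts 56 members were higher and 0 lower, against 13.3% and 14.7% of genes, with a median of 0.65. In progenitor controls 55 were higher and 0 lower, against 14.3% and 10.9% of genes, with a median of 0.94, and in progenitor knockouts 46 were higher and 0 lower, against 12.8% and 10.8% of genes, with a median of 0.79. Of the members called higher, 38 were so in both LSK comparisons, 97.4% of those in controls and 67.9% of those in knockouts. In progenitor cells 43 were shared, 78.2% of those in controls and 93.5% of those in knockouts. The controls and the knockouts come from different mice, and each comparison uses its own libraries.

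Members of every class were called. In LSK controls 18 of 43 large subunit members, 15 of 32 small subunit members, 2 of 3 stalk members and 4 of 7 paralogs or retrocopies were called higher, and in LSK knockouts 30, 19, 2 and 5 in the same order. In progenitor controls the counts were 25, 22, 3 and 5, and in progenitor knockouts 21, 18, 2 and 5. Without overlap, 46 of 85 members were higher in LSK knockouts, 41 in LSK controls, 65 in progenitor knockouts and 42 in progenitor controls, against 10.6%, 13.7%, 14.8% and 13% of genes. In the opposite direction 1 member, Rpl15 in LSK controls, was lower without overlap, where 15% of genes were, and 0 members were in LSK knockouts, progenitor knockouts and progenitor controls, against 13%, 16.4% and 13.3%. Rpl15, of the large subunit, had 57.4, 60.0, 61.6 and 54.5 CPM in Mx1Cre control LSK libraries, against 80.5, 68.0, 81.8 and 74.8 CPM in CreER controls, with an edgeR adjusted p of 0.0524. In total 36 members were called higher in all 4 comparisons and 21 in none.

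Rps21, a small protein of the small subunit, had the largest log2 fold change of the 85 members in all 4 comparisons. It had 166, 151, 258 and 157 CPM in Mx1Cre control LSK libraries, against 33.3, 40.1, 101 and 79.5 CPM in CreER controls. All Mx1Cre values were above all CreER values, and the log2 fold change was 1.54 ± 0.30 (SE) with an edgeR adjusted p of 0.00158. Progenitor knockout libraries had 174, 162, 192 and 212 CPM in the Mx1Cre line, against 25.1, 48.9, 31.3 and 42.8 CPM in the CreER line. These groups did not overlap either, with 2.34 ± 0.41 and an adjusted p of 0.00109 by the same test. Progenitor controls had 481, 174, 105 and 199 CPM for Mx1Cre, against 34.4, 32.8, 52.5 and 88.9 CPM for CreER, with the highest value in Mx1Cre control 1.

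Fau, which encodes the small subunit protein eS30 fused to a ubiquitin-like part, had 47.8, 45.01, 62.0 and 44.1 CPM in Mx1Cre control LSK libraries, against 22.3, 22.5, 32.4 and 27.0 CPM in CreER controls. In LSK knockouts it had 46.9, 41.2, 55.3 and 50.2 CPM for Mx1Cre, against 26.2, 35.2, 30.6 and 29.0 CPM for CreER. The Mx1Cre and CreER values of Fau did not overlap in controls or in knockouts. The log2 fold changes were 0.95 ± 0.14 in controls and 0.69 ± 0.14 in knockouts, with edgeR adjusted p of 0.000173 and 0.00161.

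Rps27 and its retrocopy Rps27rt are shown with their start sequences above, and both begin with a pyrimidine run followed by the same bases. Rps27rt had 287, 288, 351 and 304 CPM in Mx1Cre control LSK libraries, against 101, 93.8, 188 and 156 CPM in CreER controls. Rps27 had 13.1, 15.3, 21.4 and 15.5 CPM in the Mx1Cre controls, against 4.48, 5.35, 9.15 and 8.10 CPM in the CreER controls. Neither pair of groups overlapped, and parent and copy moved by like amounts, 1.20 ± 0.18 for Rps27rt and 1.28 ± 0.23 for Rps27, with edgeR adjusted p of 0.000142 and 0.000690. Rpl37rt, the retrocopy of Rpl37, changed by 1.21 ± 0.19 with an adjusted p of 0.000184, and Rpl37 by 1.18 ± 0.23 with 0.00155. Rpl37rt had 340.1, 373, 466 and 631 CPM in Mx1Cre knockout progenitor libraries, against 106, 211, 106 and 153 CPM in CreER knockouts, a log2 fold change of 1.67 ± 0.30. These groups did not overlap. Rps23rg1 had 35.4, 31.1, 36.1 and 34.7 CPM in Mx1Cre knockout LSK libraries, against 19.6, 22.2, 21.2 and 20.7 CPM in CreER knockouts, with 0.72 ± 0.13 and an adjusted p of 0.000587. Its groups did not overlap either. The member that went the other way was Rpl32l, listed as an L32-like gene on chromosome 10, with 105, 77.2, 86.9 and 84.5 CPM in Mx1Cre control LSK libraries, against 182, 151, 100.4 and 143 CPM in CreER controls. The groups of Rpl32l overlapped, its log2 fold change was -0.68 ± 0.22 with an adjusted p of 0.0354, and leaving out 1 library ended the call in 6 of 8 cases.

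**Figure D4:**
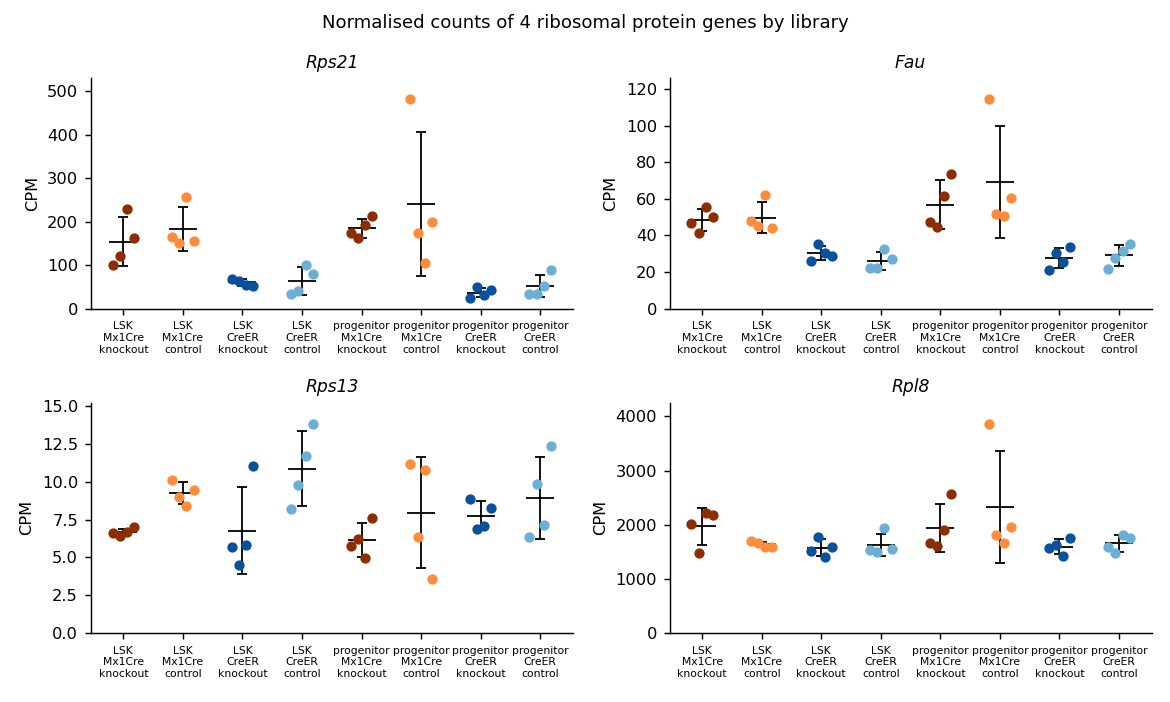
CPM of Rps21, Fau, Rps13 and Rpl8 in the 32 libraries by group, 1 point a library, with the mean and SD of each group. Rps21 and Fau sit higher in the Mx1Cre groups than in the CreER groups, Rps13 is lower on average in LSK knockouts than in their controls, and Rpl8 is highest in progenitor Mx1Cre control 1 at 3864 CPM.

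Among the large subunit members with the lowest p in LSK knockouts, Rpl7a had 126, 149.9, 178 and 151 CPM in the Mx1Cre line, against 65.0, 94.3, 75.9 and 86.7 CPM in the CreER line, a log2 fold change of 0.92 ± 0.19 with an edgeR adjusted p of 0.00166. Rpl37a, a small zinc-binding protein, had 55.2, 64.5, 90.6 and 75.2 CPM in the Mx1Cre line, against 40.6, 36.8, 24.4 and 28.8 CPM in the CreER line, with 1.14 ± 0.25 and an adjusted p of 0.00231. Neither Rpl7a nor Rpl37a overlapped between the lines. Of the stalk, Rplp2 had 80.5, 60.5, 129 and 82.6 CPM in Mx1Cre knockout LSK libraries, against 42.2, 36.7, 37.6 and 38.9 CPM in CreER knockouts, with 1.19 ± 0.23 and an adjusted p of 0.000798. The lines did not overlap in Rplp2. Its partner Rplp1 was at 0.72 ± 0.23 and Rplp0, which anchors both, at 0.30 ± 0.15, with adjusted p of 0.0289 and 0.130.

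In progenitor cells the lowest p belonged to Rpl7a in knockouts and Rpl39 in controls. Rpl39, one of the smallest ribosomal proteins, lines the exit tunnel of the large subunit, and its gene lies on the X chromosome. It had 83.0, 38.0, 26.9 and 34.1 CPM in Mx1Cre control progenitor libraries, against 10.6, 11.9, 11.9 and 14.8 CPM in CreER controls. Knockout progenitor libraries had 28.1, 26.2, 35.3 and 38.6 CPM in the Mx1Cre line, against 9.10, 12.2, 9.03 and 11.6 CPM in the CreER line. The Mx1Cre and CreER values of Rpl39 did not overlap in controls or in knockouts. The log2 fold changes were 1.90 ± 0.29 in controls and 1.62 ± 0.29 in knockouts, with edgeR adjusted p of 0.000325 and 0.00116.

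Rpl37a had 227, 84.1, 59.8 and 107 CPM in Mx1Cre control progenitor libraries, against 27.2, 24.5, 35.6 and 44.0 CPM in CreER controls. Rpl37, another zinc-binding protein of the large subunit, had 55.7, 34.9, 26.2 and 31.7 CPM in the Mx1Cre controls, against 11.3, 11.3, 14.8 and 20.1 CPM in the CreER controls. Neither Rpl37a nor Rpl37 overlapped between the lines. The log2 fold changes were 1.87 ± 0.34 for Rpl37a and 1.37 ± 0.24 for Rpl37, with edgeR adjusted p of 0.00118 and 0.000908. In progenitor knockouts Rpl7a had 169.9, 174, 179 and 185 CPM in the Mx1Cre line, against 52.6, 98.4, 66.7 and 82.5 CPM in the CreER line, with 1.25 ± 0.19 and an adjusted p of 0.000428. Rpl36 had 69.5, 65.9, 86.2 and 97.3 CPM in the Mx1Cre line, against 20.0, 28.3, 22.6 and 30.5 CPM in the CreER line, with 1.67 ± 0.30 and an adjusted p of 0.00124. Neither Rpl7a nor Rpl36 overlapped between the lines.

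Members with high levels differed among themselves between the Cre lines. In LSK cells Rpl8 averaged 1636 ± 52.2 CPM in Mx1Cre and 1626 ± 205 CPM in CreER controls, a log2 fold change of 0.03 ± 0.12, and Rpl4 was at 0.08 ± 0.11, neither of them past the test. In the same LSK controls Rps20 was at 0.39 ± 0.12 and Rps15 at 0.83 ± 0.21, with edgeR adjusted p of 0.0212 and 0.00949. In progenitor controls the log2 fold changes were 0.50 for Rpl8, 0.37 for Rpl4, 0.94 for Rps20 and 1.48 for Rps15. Members with at most 10% of windows shared had a median of 0.20 in LSK controls with 4 of 11 called higher, those between 10% and 50% a median of 0.65 with 20 of 36, and those above 50% a median of 0.48 with 14 of 36. Rps20 is among the 4, although its share comes from a transcript much longer than its counted exons. A start with C and at least 4 further pyrimidines stood in 7 of the 25 members with a promoter entry that were called higher in all 4 comparisons, in 2 of 18 called in none and in 7 of the 22 others.

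Gene length went with these differences, in the members and in other genes. In progenitor controls the median log2 fold change was 1.48 over the 16 members under 500 bases, 0.98 over 33 members from 500 to under 750, 0.75 over 17 from 750 to under 1000, 0.72 over 15 from 1000 to under 2000 and 0.56 over 4 members of 2000 bases or more. Other genes in the same bins had medians of 0.62, 0.44, 0.32, 0.14 and -0.09. In LSK controls the members under 500 bases had a median of 0.86, against 0.16 for other genes of that length, and the members from 1000 to under 2000 bases 0.39, against -0.05. Across the 85 members, log2 fold change and log2 length had an r between -0.34 and -0.28 in the 4 comparisons, as a description of members that share all libraries. The members called higher in all 4 had a median length of 608.5 bases and those called in none one of 795.

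**Figure D5:**
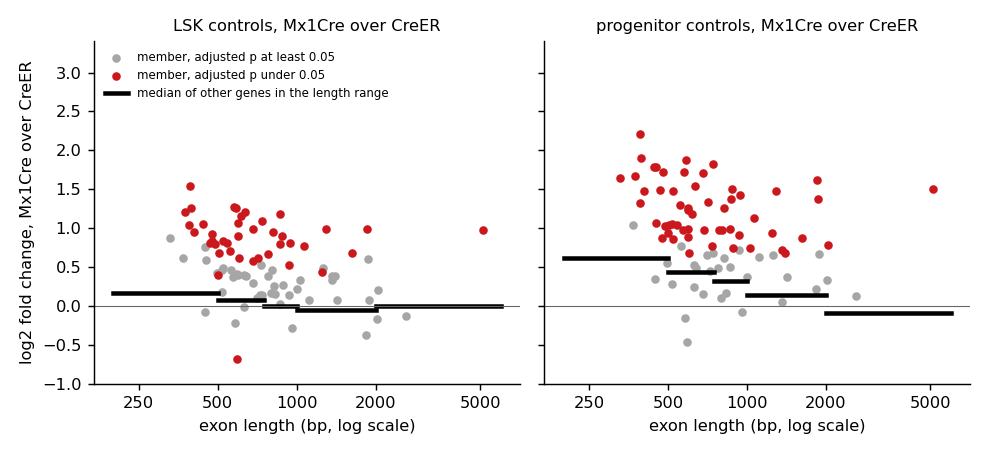
Log2 fold change of each tested member, Mx1Cre over CreER, against its exon length on a log axis, in LSK controls and in progenitor controls, with the median of other genes in each length range as black bars. Members called at an adjusted p under 0.05 are red, and most members lie above the bar of their length range.

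With the length trend of each library removed in the fit, 51 members were called higher and 2 lower in LSK controls, 50 and 1 in progenitor controls, 30 and 2 in LSK knockouts and 39 and 2 in progenitor knockouts, by edgeR's quasi-likelihood test. In the same fits and order 13.8%, 15.5%, 11.5% and 13.5% of all genes were called higher and 11.9%, 12.8%, 13.8% and 12.3% lower. The medians were then 0.54, 0.55, 0.33 and 0.39. The length slopes of single libraries, which show how far short genes are raised when negative, were -0.347 in progenitor Mx1Cre control 1 and -0.293 in progenitor Mx1Cre knockout 4, and between -0.134 and 0.119 in the others. Without progenitor Mx1Cre control 1, 44 members were higher and 1 lower in progenitor controls, with a median of 0.57. Leaving out other libraries gave 25 to 55 called members in LSK controls, the 25 without CreER control 2, and 29 to 62 in LSK knockouts, the 29 without Mx1Cre knockout 3 and 37 without CreER knockout 3. Without LSK CreER knockouts 2 and 3 together, 18 members were higher in LSK knockouts. In progenitor knockouts the range was 30 to 44, the 30 without Mx1Cre knockout 4. The shares of all genes called in the fits with libraries left out are not given here, so these counts cannot be set against a background.

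Markers of other blood cells moved with the Cre line too, and their part in the ribosomal protein genes was not tested. The 6 neutrophil markers summed to a median of 911 CPM in Mx1Cre control LSK libraries (range 369.9 to 2187), against 147 in CreER controls (90.7 to 166), and 6 of 6 were called higher. In progenitor controls the sums were 3005 (1115 to 13815) and 389 (267 to 619.7), again with 6 of 6 higher. In LSK knockouts 4 of 6 and in progenitor knockouts 6 of 6 were higher. The 6 myeloid progenitor markers were all called higher in LSK controls, and 5 of 6 in progenitor controls. The 5 erythroid progenitor markers went the other way. In LSK controls they summed to a median of 184 CPM in the Mx1Cre line and 355 in the CreER line. In progenitor controls the medians were 343 and 1159, and the ranges of the lines overlapped in both populations. In knockouts the sums were lower in the Mx1Cre line without overlap. Their medians were 28.1 against 258 CPM in LSK cells and 478 against 1229 CPM in progenitor cells. Of the 9 markers of stem cells and LSK cells, 5 were lower in Mx1Cre control and 7 in Mx1Cre knockout LSK cells, with 0 higher in both. The 6 stromal and endothelial markers summed to a median of 3.17 CPM in Mx1Cre and 11.7 CPM in CreER control LSK libraries, and 2 of them could be tested there. The 5 macrophage markers summed to a median of 8.52 CPM in Mx1Cre and 5.09 CPM in CreER control LSK libraries. In progenitor controls the medians were 13.2 and 4.91 CPM, and the ranges of the lines overlapped in both populations. In knockouts of both populations the sums were higher in the Mx1Cre line without overlap. Of these 5 markers, Marco was at 0 in all 8 groups.

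Between the cell populations 1 member was called. In controls of both lines, LSK over progenitor, 1 of 85 members was called lower and 0 higher, while 17.3% of genes were lower and 17.4% higher, 34.6% in all. The member was Rpl7l1, whose mean of the 4 Mx1Cre libraries was 152 ± 15.3 CPM in LSK and 196 ± 28.1 CPM in progenitor cells, and in the CreER line 168 ± 12.2 CPM in LSK and 180.4 ± 12.9 CPM in progenitor cells (SD, n = 4 each). Its log2 fold change was -0.24 ± 0.07 with an edgeR adjusted p of 0.00619, and it stayed called whichever library was left out. The median over the members was -0.15, and 0.04 without progenitor Mx1Cre control 1. LSK and progenitor libraries of the same number come from the same mouse by the labels, and with the mouse as a block 3 members were called lower, Rpl7l1 at -0.24, Rpl36al at -0.38 and Rpl27 at -0.27. The share of all genes called with that block is not given here.

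Genes that build ribosomes are listed beside those of the ribosome itself. Of 58 ribosome biogenesis genes, 28 were higher and 0 lower in Mx1Cre knockout LSK cells, where 15.2% of all genes were higher and 0 of 85 ribosomal protein genes were called, and their median log2 fold change was 0.25. Examples were Bop1 and Wdr12, which with Pes1 form a complex for processing large subunit rRNA, at 0.51 ± 0.10 and 0.49 ± 0.10, and Eif6, which keeps the subunits apart, at 0.48 ± 0.11, with edgeR adjusted p between 0.00136 and 0.00381. In the mean of both Cre lines 14 were higher and 0 lower in LSK cells, where 13.5% of all genes were higher, and 0 were called in the CreER line alone or in progenitor cells. Between the lines 28 of the 58 were lower in Mx1Cre than in CreER LSK controls and 1 was higher, with a median of -0.28, where 10% of all genes were lower and 11.7% higher. In progenitor controls 24 were lower and 1 higher, with a median of -0.33, where 10.9% of all genes were lower and 14.3% higher. Rrp12, a factor in the export of both subunits, was at -0.56 ± 0.09 in LSK and -0.72 ± 0.11 in progenitor controls, and Nolc1, a nucleolar scaffold, at -0.54 ± 0.10 in LSK controls. In knockouts 5 were lower and 3 higher in LSK cells, where 14.7% of all genes were lower and 13.3% higher. In progenitor knockouts 20 were lower and 1 higher, where 10.8% of all genes were lower and 12.8% higher.

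Of 28 genes for translation factors and other messages of the TOP class, 3 were higher and 2 lower in Mx1Cre than in CreER LSK controls and 4 higher and 0 lower in progenitor controls, with medians of 0.00 and 0.12. All genes were called higher in 11.7% and lower in 10% of cases in LSK controls, and in 14.3% and 10.9% in progenitor controls, so that the shares of the 28 lay near or below the background. Those that rose in both included Btf3, of the nascent polypeptide-associated complex, at 0.58 ± 0.16 and 1.09 ± 0.25. In knockouts over controls, 6 of the 28 were higher and 0 lower in Mx1Cre LSK cells, where 15.2% and 15.9% of all genes were, and over both lines 3 were higher and 2 lower, against 13.5% and 14.3%. Tpt1, a TOP gene, fell by 0.34 ± 0.10 in LSK cells and by 0.36 ± 0.10 in progenitor cells on the log2 scale, and Gas5, the host gene of small nucleolar RNAs with a TOP start, fell by 0.39 ± 0.12 in LSK cells, with edgeR adjusted p of 0.0171, 0.0334 and 0.0176.

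Of 23 tested genes of RNA polymerase I and 5S transcription, 2 were higher and 0 lower in Mx1Cre knockout LSK cells, and 5 were lower and 0 higher in Mx1Cre than in CreER LSK controls, where 10% of all genes were lower. Among 29 tested regulators of ribosomal protein synthesis, 4 were higher and 4 lower in Mx1Cre knockout LSK cells, near the 15.2% and 15.9% of all genes, and 1 was lower in the CreER line, against 1.59%. Mycn, which like Myc raises ribosome production, was at -2.93 ± 0.29 in Mx1Cre and -1.05 ± 0.24 in CreER knockout LSK cells, with edgeR adjusted p of 1.09e-06 and 0.0257. Between the lines, 2 regulators were higher and 3 lower in Mx1Cre LSK controls and 1 was higher and 5 lower in progenitor controls, against the 11.7%, 10%, 14.3% and 10.9% of all genes given above.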

How the data were processed

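Gene expression was measured by RNA sequencing of 32 libraries. Sorted cells gave 50 ng of RNA a library for TruSeq preparation and paired-end reading on a NextSeq500, per the labels' protocols. The deposited values are raw counts per gene, which the authors made with featureCounts on mm10 per the submitters' processing notes. No label or note used here gives the aligner, the annotation, the strand setting or the handling of reads that match several places. The table of the series held the same values as the 32 tables of single libraries. Symbols came from RefSeq for 25275 genes, and the other 1904 carried 3.92% of the counts.

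Counts were tested with edgeR 4.0.16 in R 4.3.3. TMM normalization was used, genes with few counts were removed with filterByExpr (a minimum count of 10 and a minimum total of 15), and p-values from the quasi-likelihood test were adjusted by Benjamini-Hochberg over all genes tested, with a threshold of 0.05. Fits held the 16 libraries of a population, or all 32 where populations were compared. CPM use TMM factors over all 32 libraries, and per kilobase values divide by the deposited exon length. Replicates are different mice by the labels. The 14 comparisons include those of the Cre lines in knockouts, added after the data were seen. Alternatives were DESeq2 1.42.0, its size factors, TMM without the members, no filter, removal of the length trend, a block, a fit of 8 libraries and left-out libraries. The fits were tested on simulated counts, with the same spread set for all genes. Of genes changed 1.5-fold, 32% were recovered for LSK CreER knockouts, 31% for progenitor Mx1Cre knockouts and 89% for LSK over progenitor controls. Of genes changed 2-fold, 94%, 89% and 100% were recovered in the same order. Smaller changes were not simulated.

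The members and gene lists were chosen with earlier results of these data known. Members named with values were up to 5 called in each direction of a comparison by lowest adjusted p, the 5 with the highest CPM per kilobase, the paralogs with their parents, Rps19, Rpl5, Rpl11, Rps14 and Rpl26, and up to 4 genes of each other list. Some members and genes that the rule names are not reported here. Members outside this rule, such as Rpl15, were named after their values were seen. LSK and progenitor libraries of a number share a mouse by the labels. For CreER knockouts 2 and 3 the sex-linked genes differed between the LSK and progenitor library of a number. Their correlations of deviations were -0.0939 and -0.0634, so these 2 pairs are in doubt. For knockouts and controls of a number, the correlation of deviations from the group means was 0.168, 0.244, 0.199 and 0.130 in LSK Mx1Cre cells. It was the best match for numbers 1, 2 and 3 but not for 4. The labels do not pair these libraries, and same-numbered mice had the same labelled sex there. The replicate block spanned all 16 libraries of a population and is not a paired test.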

Additional observations from a re-analysis of the deposited data

Results flagged for a closer look

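Single libraries that lay far above the other 3 of their group were found in the summed share of the ribosomal protein genes and in 13 group values of members described above. Chance alone gives about 1 in 20 such values, and 152 group values of members and 16 of shares and length slopes were examined. Over the 85 tested members, 58 of 680 group values stood apart, 24 of them high in progenitor Mx1Cre control 1 and 13 high in LSK Mx1Cre control 3.

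Progenitor Mx1Cre control 1 had 4.26% of its counts in ribosomal protein genes and a length slope of -0.347. In that library Fau was at 114 CPM, Rps23rg1 at 65.2 CPM, Rplp2 at 254 CPM and Rpl8 at 3864 CPM, each above the other 3 progenitor Mx1Cre controls.

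LSK Mx1Cre control 3 was the high library for Rps23rg1 at 46.3 CPM, Rpl39 at 47.4 CPM, Rpl37a at 105 CPM, Rpl7a at 186 CPM and Rps21 at 258 CPM. Its share of counts in the family was 2.35%, the highest of its group, whose lowest was 2.18%.

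The remaining high values belonged to 1 member each. Rpl3 was at 123 CPM in progenitor Mx1Cre knockout 1 and Rpl32l at 140.4 CPM in progenitor Mx1Cre knockout 4. Rps27 was at 8.92 CPM in progenitor CreER control 4 and Rpl8 at 1930.0 CPM in LSK CreER control 3.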

How the results depend on the processing

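Counts are members called by edgeR unless DESeq2 is named, and medians are log2 fold changes of the 85 tested members. Shares of all genes are not given for fits with libraries left out, fits with a block, fits of 8 libraries alone or DESeq2. With the length trend removed, 13 members were called in LSK Mx1Cre knockouts, 6 in progenitor Mx1Cre knockouts, 11 in the LSK mean of both lines and 6 in the progenitor mean, all lower, and 1 (Rps27rt, -0.93) in the LSK difference between the lines. LSK knockouts, Mx1Cre over CreER, then had 32 called and a median of 0.33, progenitor knockouts a median of 0.39 and progenitor controls one of 0.55. With progenitor Mx1Cre control 1 left out as well, chosen after seeing the data, the counts were 3 (Rps10, Rps18 and Rps19) in progenitor Mx1Cre knockouts and 5 in the progenitor mean, and the median in progenitor controls was 0.41. Leaving out that control and knockout 4, also chosen later, gave 3 in the progenitor mean and a median of 0.57 in progenitor controls. DESeq2 called 1 in LSK CreER knockouts and 2 (Rpl7l1 and Rpl36al) in LSK over progenitor controls, and the 8 LSK Mx1Cre libraries alone gave 2 (Rps13 lower and Rpl36al higher). The replicate block gave 1 in LSK Mx1Cre knockouts and the mouse block 3 in LSK over progenitor controls, and a block moved no other count by over 1.5 times. No set of knockouts and controls is paired by the labels. In the 3 sets other than LSK Mx1Cre, same-numbered libraries had correlations from -0.279 to 0.434. Without LSK CreER knockouts 2 and 3, 1 was called in the LSK mean and 18 in LSK knockouts, Mx1Cre over CreER. The causes were not tested.

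Leaving out 1 library gave 0 to 1 in LSK CreER knockouts, 0 to 2 in LSK Mx1Cre knockouts, 1 to 7 in the LSK mean, 0 to 1 in the progenitor mean, 0 to 2 in the LSK difference between the lines and 1 to 5 in LSK over progenitor controls. For Mx1Cre over CreER it gave 25 to 55 in LSK controls, 29 to 62 in LSK knockouts and 30 to 44 in progenitor knockouts. Medians ran from -0.47 to 0.07 (0.069 without control 1) in progenitor Mx1Cre knockouts, from -0.33 to 0.21 in the progenitor difference between the lines and from 0.57 to 1.08 in progenitor controls, Mx1Cre over CreER. No named call of a member changed direction under the alternatives run: 400 such values kept their side of the threshold and 29 did not. DESeq2's size factors, TMM without the members and no filter moved no count by over 1.5 times.

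Limits are 4 mice a group, 3 members with too few counts to test, shared sequence in most members with an unknown handling of ambiguous reads, and a Cre line that cannot be told apart from its agent and its mice.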
